A study of Mus musculus with 12 samples.

Results

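The chemokine and interleukin system was described in RNA bound to tagged ribosomes of the mouse hypothalamus. The members were all genes of the deposited table whose symbol starts with Ccl, Cxcl, Ccr, Cxcr or Il followed by a number, with opposite-strand RNA genes (symbols ending in os) left out. This took 68 of 5764 genes. By their symbols, 38 code for ligands, 28 for receptors or receptor subunits, and the other 2 (Il4i1 and Il4i1b) are named for an amino acid oxidase. In RefSeq, 67 of the 68 are protein-coding and Cxcl11 is annotated as a transcribed pseudogene.

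Chemokines are small secreted proteins that guide migrating leukocytes through G protein-coupled receptors, and they are grouped as CC or CXC by the spacing of their first cysteines. Interleukins are secreted signals of immune, epithelial and stromal cells, and most act through receptor complexes of several chains, many of which signal through JAK kinases and STAT factors. In the brain the best known sources of these signals are microglia, border macrophages, endothelial cells and leukocytes in vessels or meninges, while neurons carry some of the receptors, Cxcr4 among them.

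All 12 libraries came from POMCRiboTag mice, in which an HA-tagged ribosomal protein marks cells of the pro-opiomelanocortin (POMC) lineage. POMC neurons of the hypothalamus restrain feeding, and whether all tagged cells are such neurons cannot be told here. Every mouse was fasted for 16 h, was given 1 h to get used to the room, and had an object placed in its home cage for 10 min around zeitgeber time 6 h. In the 6 NEO libraries the object was a nonedible one, wood inside wire mesh, and in the 6 SENS libraries it was chow inside the same kind of mesh, to be smelled and seen without being eaten. Tissue enriched for the arcuate nucleus was homogenised, ribosomes bearing the tag were precipitated through HA, and RNA of high integrity was amplified with a low-input kit. Animals lived in pairs or triplets, their age is not given in the sources used here, and the labels do not tell whether each library is a separate mouse, so p-values measure the spread between libraries, which may be technical. No input or untagged library was compared, so RNA carried along in the pull-down and RNA of the tagged cells cannot be told apart. None of the 8 POMC neuron markers looked for is in the table, and they are not analysed here.

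Levels are CPM, read counts scaled to the total of this table's genes in each library, which came to between 6901 and 11139 reads per NEO library and between 8619 and 18299 reads per SENS library. A single read was therefore worth between 54.6 CPM (SENS 6) and 145 CPM (NEO 5), and a value of 0 in 1 library allows up to 3 reads, or between 164 and 435 CPM. CPM is not scaled by gene length, so levels are compared between libraries and not between genes. Read totals of a group are given without scaling. SENS had 1.54-fold as many reads as NEO, so equal levels would give more reads there. Counts were low throughout: the median gene of the table had 9 reads over the 12 libraries, and the median member 18.1. How the genes of the table were chosen is not given, so low counts here need not hold for chemokine and interleukin genes outside it. Among the 2712 genes with at least 10 reads in all, 689 (25.4%) had more than 50% of them in 1 library, which was SENS 6 for 218 of the genes and SENS 2 for 108. The corresponding share of the members was 10 of 42 (23.8%).

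Sequences are shown for a compact set of neighbouring CXC chemokine genes on chromosome 5 and for Cxcl10. The promoters of these ligands are textbook targets of the factor NF-κB, and the genes were chosen for this and with their reads known. Cxcl1, Cxcl2 and Cxcl3 were above 0 in 4, 5 and 8 libraries, and together only in NEO 1, SENS 1 and SENS 2. Each line gives 150 bases, from 120 before the start site through the first 30 of the transcript, read along the gene, from RefSeq promoters of build GRCm38.p6. Capitals mark matches to a κB-like pattern (GGG, then any 3 bases, then TTCC) and to TATAAA, on either strand and also where matches overlap. The stretches are chr5:90785981-90786130 (plus strand) for Cxcl3, chr5:90891125-90891274 (plus strand) for Cxcl1, chr5:90903779-90903928 (plus strand) for Cxcl2, and chr5:92348860-92349009 (minus strand) for Cxcl10.
Cxcl3: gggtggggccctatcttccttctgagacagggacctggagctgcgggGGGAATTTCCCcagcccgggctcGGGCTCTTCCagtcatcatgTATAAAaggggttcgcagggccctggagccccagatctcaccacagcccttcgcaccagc
Cxcl1: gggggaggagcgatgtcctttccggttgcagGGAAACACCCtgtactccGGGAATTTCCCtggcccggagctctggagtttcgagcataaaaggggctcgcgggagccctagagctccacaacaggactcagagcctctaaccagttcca
Cxcl2: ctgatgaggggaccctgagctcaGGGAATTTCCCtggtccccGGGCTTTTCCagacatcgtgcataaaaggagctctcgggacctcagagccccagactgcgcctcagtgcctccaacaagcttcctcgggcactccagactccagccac
Cxcl10: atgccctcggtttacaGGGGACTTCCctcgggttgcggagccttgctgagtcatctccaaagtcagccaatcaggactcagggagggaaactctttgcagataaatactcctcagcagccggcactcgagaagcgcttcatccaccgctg

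The first 3 of these promoters hold the identical run GGGAATTTCC, which begins 73 bases before the start of Cxcl3, 71 before that of Cxcl1 and 97 before that of Cxcl2. Over all RefSeq mouse promoters of 300 bases (250 before to 50 after the start), 29 of 32851 (0.0883%) have this run, and among the members Ccr3 is the only other one. The looser κB-like pattern occurs in 5.56% of all promoters, or in 6.31% of the 27025 genes with an entry. Of the 50 members with an entry, 12 have it: 7 of 24 ligands and 5 of 24 receptors. TATAAA occurs in the promoters of 15.7% of genes, and in those of 12 of 24 ligands and 3 of 24 receptors. In Cxcl10 another match to the κB-like pattern lies 159 bases before the start, outside the printed stretch. A match describes the letters and not a bound site.

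No member differed between SENS and NEO at an adjusted p under 0.05. The limma fit on log2(CPM + 1) over the 5141 genes averaging 1 CPM or more called 0 of them, which is 0% of the genes tested, and 189 genes (3.68%) had an unadjusted p under 0.05. Of the 62 members in that fit, 2 had an unadjusted p under 0.05, the ligand Il1a and the receptor Il21r, both with the higher value in SENS (1.83% of all genes tested had such a p in that direction and 1.85% in the other). The smallest adjusted p of any member was 0.745. The NEO and SENS values overlapped for all 62, against 5 of 5141 genes (0.0973%) with no overlap. The other 6 members were listed at 0 in every library: Ccl1, a T cell chemokine, Il10, a cytokine that damps inflammation, the chemokine receptors Ccr3, Ccr4 and Ccr1l1, and Il22ra2, the decoy receptor of interleukin-22.

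**Figure D1:**
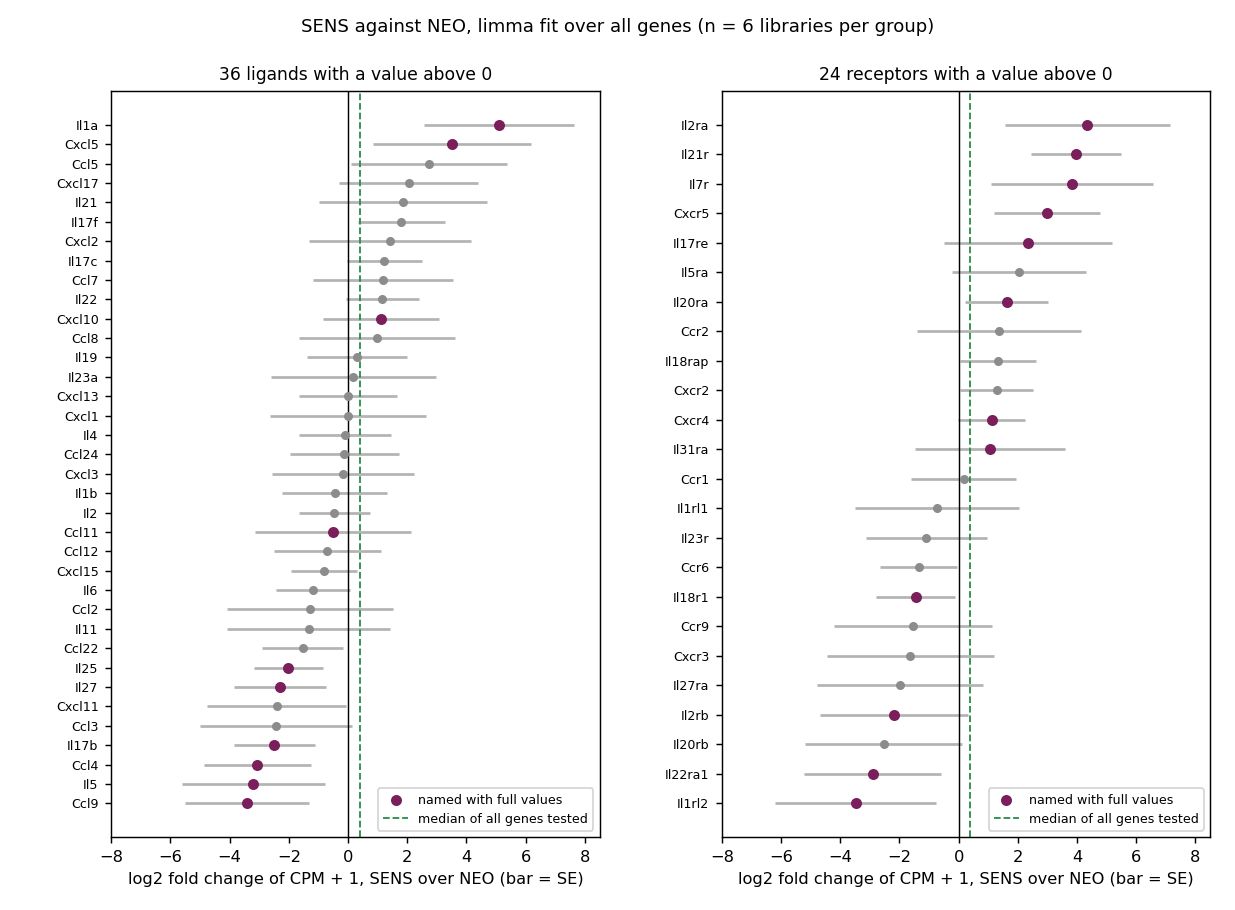
Fitted log2 fold changes of CPM + 1, SENS over NEO, for the 36 ligands (left) and 24 receptors (right) above 0 in some library, with 6 libraries per group. Points are estimates, bars are ± 1 standard error, purple points are the 22 members described with all their values, the dashed line is the median of all genes tested (0.39), and Il1a at 5.10 and Il2ra at 4.35 lie highest.

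Ligands and receptors were both spread over positive and negative fold changes, as the plot of fitted fold changes shows. Of the 36 ligands with a fit, 14 had a fold change above 0 and 22 below, with a median log2 fold change of −0.15. Of the 24 receptors, 13 were above 0 and 11 below, with a median of 0.61. Over all genes tested, 2928 of 5141 (57.0%) were above 0 and the median was 0.39. The median standard error of a member was 2.19 on this scale. For 9 members the fitted fold change had the opposite sign to the difference of mean CPM, since the number of libraries at 0 weighs heavily on the log scale. The size of a fold change depends on the pseudocount for the same reason: with 50 CPM added in place of 1, Il1a went from 5.10 to 2.31, Il21r from 3.97 to 2.01, Il2ra from 4.35 to 1.61 and Cxcl5 from 3.51 to 0.92.

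Summed over the 38 ligands, the level was 7921 ± 3085 CPM in NEO and 7853 ± 1755 CPM in SENS (mean ± SD, n = 6). The sums ran from 4848 CPM (NEO 2) to 13215 CPM (NEO 5) and from 5801 CPM (SENS 1) to 10349 CPM (SENS 2), so the groups overlapped almost throughout. Summed over the 28 receptors, the level was 6138 ± 2332 CPM in NEO and 6632 ± 3029 CPM in SENS, with the highest sum, 11610 CPM, again in SENS 2. The difference of these means, 493 CPM, turned to −694 CPM without both SENS 2 and SENS 6, and to −149 CPM without Il21r. The number of members above 0 was 24.0 ± 7.97 per NEO library and 24.5 ± 6.47 per SENS library. At an equal 6000 reads per library it was 21.8 ± 7.41 and 20.9 ± 5.73. In such bulk RNA, fewer cells of a type and less RNA per cell cannot be told apart.

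**Figure D2:**
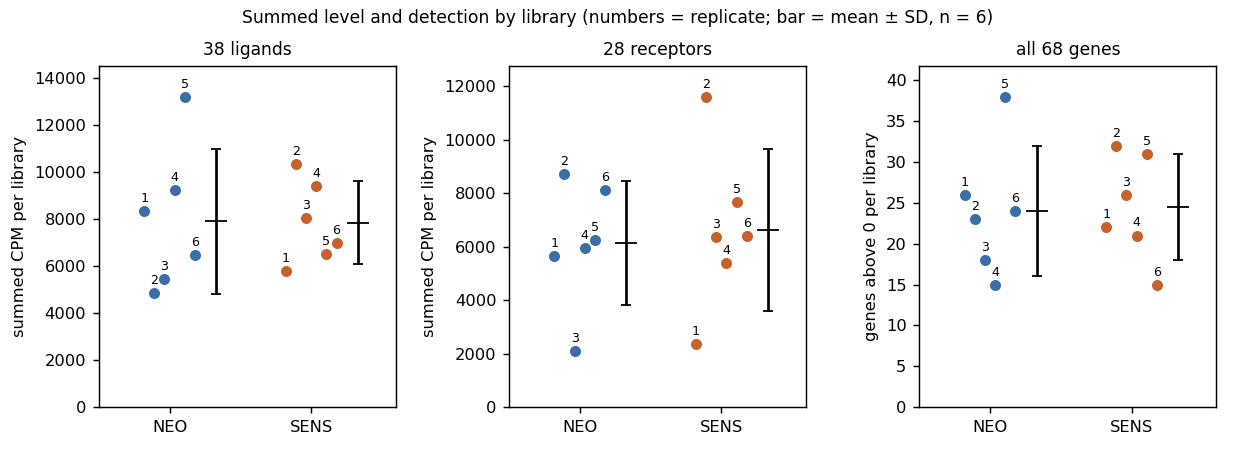
Summed CPM of the 38 ligands (left) and the 28 receptors (middle), and the number of members above 0 (right), for each library. Points are libraries labelled by replicate number and bars are the mean ± SD of 6 libraries; NEO 5 had the highest ligand sum (13215 CPM) and the most members above 0 (38), and SENS 2 the highest receptor sum (11610 CPM).

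Among CC chemokines, the attractants of monocytes, eosinophils and T cells, 11 of 12 were above 0 in some library, and 3 of them had a fold change above 0 and 8 below, while by mean CPM 6 were higher and 5 lower in SENS. Ccl9, a mouse chemokine acting on Ccr1, was above 0 in all 6 NEO libraries, at 19.5 (a fraction of 0.2 reads), 359, 699, 1268, 290 and 258 CPM in replicates 1 to 6. In SENS it was at 232 CPM in SENS 1, 2887 CPM in SENS 4 and 515 CPM in SENS 5, and at 0 in the other 3. A single SENS library thus lay above every NEO library while 3 were at 0, and the log2 fold change was −3.41 (SE 2.10, adjusted p = 0.745, limma) although the mean was 482 ± 443 CPM in NEO and 606 ± 1136 CPM in SENS.

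Ccl11, or eotaxin, which recruits eosinophils through Ccr3, was at 180, 140, 290 and 904 CPM in NEO 2, 3, 5 and 6. It was at 1219, 1799 and 372 CPM in SENS 2, 3 and 4, and at 0 in the remaining 5 libraries. The highest 2 values were in SENS, yet SENS also had more libraries at 0, so that the means (252 ± 338 and 565 ± 768 CPM) and the log2 fold change (−0.50, SE 2.65) pointed in different directions. Its receptor gene Ccr3 was listed at 0 throughout.

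Ccl4 and Ccl3, the macrophage inflammatory proteins, lie side by side on chromosome 11 and overlap in the annotation, so their reads may be shared without a record of strand. Ccl4 was at 1141 CPM in NEO 4 and 290 CPM in NEO 5, which are 9 and 2 reads, and at 0 in all 6 SENS libraries. Its pooled NEO level of 215 CPM was 5.65-fold the 38.2 CPM (3 reads) that a count of 0 over all SENS libraries allows. This limit, for these libraries, covers counting error at 0 only, and not that of the NEO reads. Ccl3 was above 0 in NEO 4, 5 and 6, and in SENS 6, which held 27 of its 36 reads. Ccl22, a ligand of Ccr4 that attracts regulatory T cells, had 4 reads, all in NEO 5 (78.3 CPM pooled over NEO, at least 2.05-fold above the SENS limit).

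The monocyte attractants that act on Ccr2 were uneven between libraries as well. Ccl2 had 61 reads, of which 49 (80.3%) were in SENS 2, and Ccl7 had 16 reads in NEO 4, 16 in SENS 2 and 3 in SENS 4. Ccl12, a mouse ligand of the same receptor, was more even: it was above 0 in 5 NEO and 5 SENS libraries, with 1 to 7 reads in each, at 397 ± 232 CPM in NEO and 276 ± 236 CPM in SENS. Ccl5, which attracts T cells, had 4 reads in NEO and 16 in SENS, Ccl8 had 5 and 7, and the eosinophil attractant Ccl24 had 5 and 8. Over the neighbouring genes Ccl2, Ccl7, Ccl11, Ccl12, Ccl8 and Ccl1 on chromosome 11 (82035577 to 82179812), a grouping chosen after the values were seen, SENS 2 held 92 of the 144 SENS reads.

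**Figure D3:**
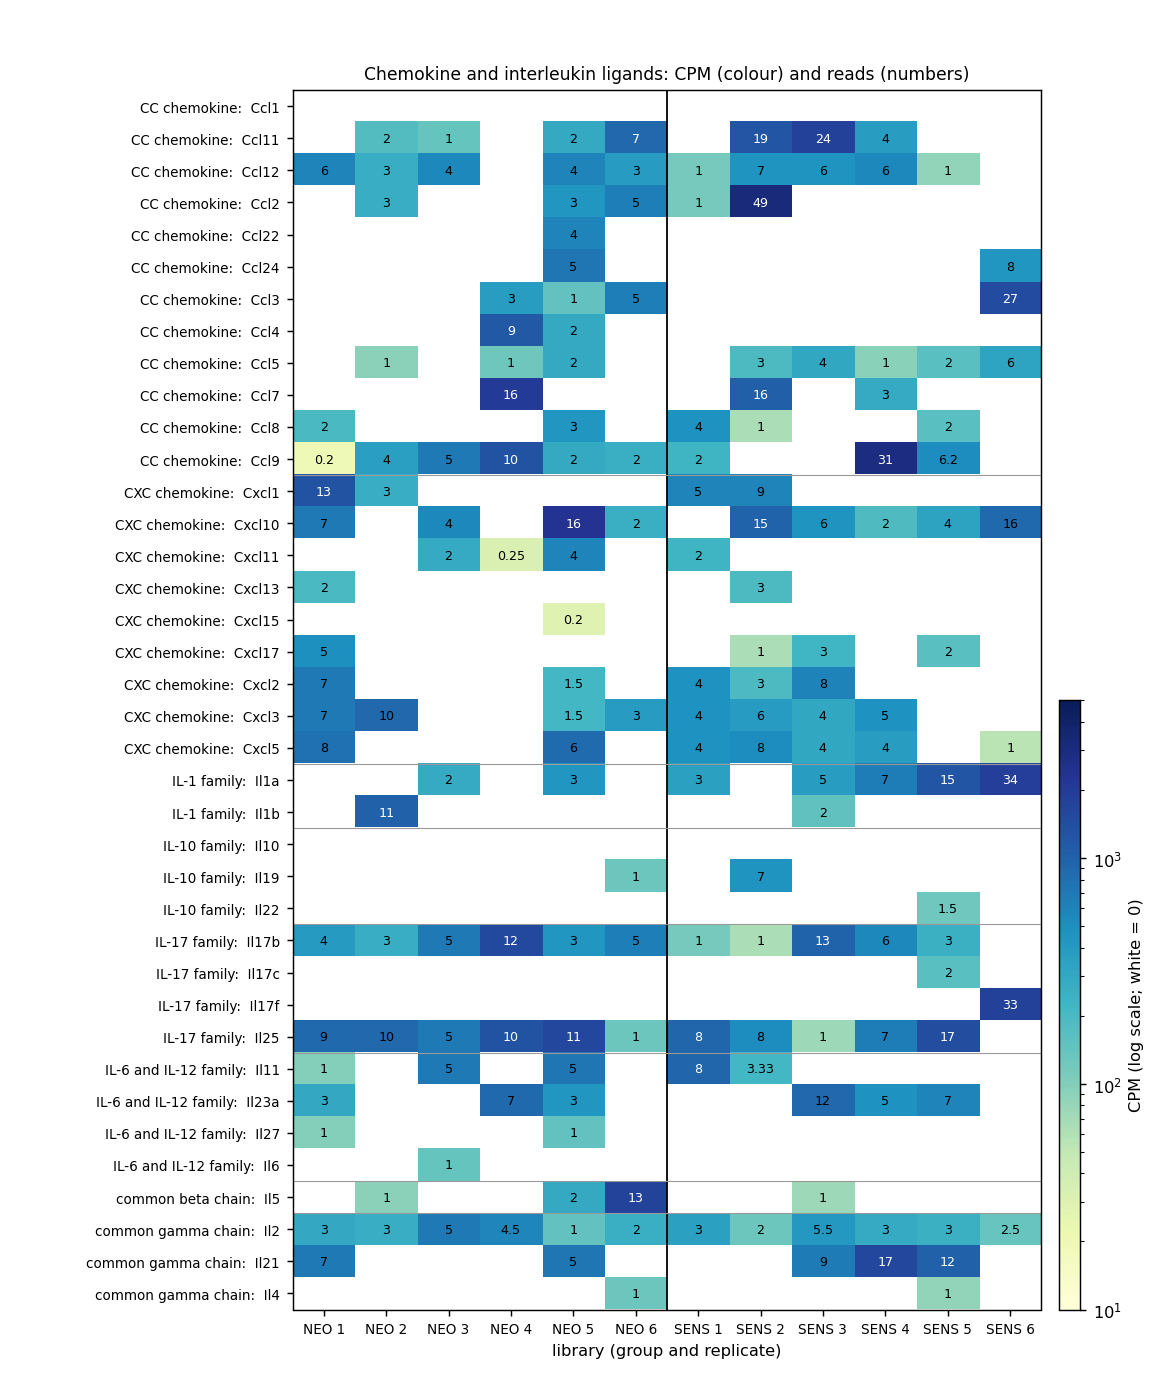
Level of each of the 38 ligand genes in the 12 libraries: colour is CPM on a log scale, white is 0, and numbers are reads (CPM divided by the worth of 1 read), which are fractions where the authors' counts were not whole. Rows are grouped by family and the vertical line parts NEO from SENS; most cells are white, and Il2 is the single ligand above 0 in all 12 libraries.

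CXC chemokines were sparse too: 9 of 9 were above 0 in some library, with 4 fold changes above 0 and 5 below, and by mean CPM 2 higher and 7 lower in SENS. Cxcl10, an interferon-induced attractant of T cells, was at 684, 559, 2318 and 258 CPM in NEO 1, 3, 5 and 6 and at 0 in NEO 2 and NEO 4. In SENS it was at 962, 450, 186, 332 and 874 CPM in replicates 2 to 6 and at 0 in SENS 1. The SENS values all lay within the NEO range, and the log2 fold change of 1.11 (SE 1.94) was opposite in sign to the difference of the means (637 ± 871 CPM in NEO, 467 ± 381 CPM in SENS).

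Cxcl5, a neutrophil attractant, was at 782 CPM in NEO 1 and 869 CPM in NEO 5 and at 0 in the other NEO libraries. It was at 464, 513, 300, 372 and 54.6 CPM in SENS 1, 2, 3, 4 and 6. More SENS libraries were above 0, but both NEO values exceeded all SENS values, and the means were close, 275 ± 427 and 284 ± 213 CPM (log2 fold change 3.51, SE 2.67, adjusted p = 0.745, limma).

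The genes whose promoters are printed above, Cxcl10 aside, share a stretch of chromosome 5 (90759298 to 90905938) with Cxcl5 and Cxcl15, a grouping chosen after the values were seen. Cxcl1, Cxcl2, Cxcl3 and Cxcl5, all attractants of neutrophils through Cxcr2, were above 0 together in NEO 1, SENS 1 and SENS 2, and all at 0 in NEO 3, NEO 4 and SENS 5. The reads of the stretch by library were 35, 13, 0, 0, 9.2 and 3 in NEO and 17, 26, 16, 9, 0 and 1 in SENS. Its libraries at 0 were in both groups, and the totals, not scaled for depth, were 60.2 and 69 reads. In NEO 5, Cxcl2 and Cxcl3 had 1.5 reads each, fractions such as a read assigned to more than 1 gene would leave, so these close relatives are uncertain there. Of the remaining CXC ligands, Cxcl11 had 6.25 reads in NEO and 2 in SENS, Cxcl13, which guides B cells, 2 and 3, the mucosal chemokine Cxcl17 5 and 6, and Cxcl15 a fraction of 0.2 reads in NEO 5.

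In the IL-1 family, Il1a, an alarm cytokine released by damaged cells, had the smallest unadjusted p of the ligands. It was at 280 CPM in NEO 3 and 435 CPM in NEO 5 and at 0 in the other 4 NEO libraries. It was at 348, 375, 652, 1246 and 1858 CPM in SENS 1, 3, 4, 5 and 6, and at 0 in SENS 2. SENS values were mostly the higher ones, but the groups overlapped at 0 and between 280 and 435 CPM. The means were 119 ± 191 CPM in NEO and 746 ± 685 CPM in SENS, with a log2 fold change of 5.10 (SE 2.54, unadjusted p = 0.048, adjusted p = 0.745, limma). Without SENS 6, which held 34 of its 69 reads, the log2 fold change was 4.51. Il1a lies on chromosome 2 (129299609 to 129310186, GRCm38.p6) and overlaps a predicted gene there, so its reads could be shared. Il1b, its inflammatory relative, had 11 reads in NEO 2 and 2 in SENS 3.

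Il25 and Il17b of the IL-17 family were among the most widely listed ones. Il25, an epithelial signal for type 2 immunity, was at 879, 898, 699, 1268, 1594 and 129 CPM in NEO 1 to 6 and at 928, 513, 75.0, 652, 1412 and 0 CPM in SENS 1 to 6. Its ranges were nearly the same in both groups, the means were 911 ± 500 and 597 ± 532 CPM, and the log2 fold change was −2.02 (SE 1.17). Il17b was at 391, 269, 699, 1522, 435 and 646 CPM in NEO and at 116, 64.1, 975, 559, 249 and 0 CPM in SENS. Its 4 lowest values were in SENS, but SENS 3 was above all NEO libraries other than NEO 4, and neither gene passed the test (log2 fold change of Il17b −2.48, SE 1.36, adjusted p = 0.745, limma). Without SENS 6, where both were at 0, the log2 fold changes were −0.52 for Il25 and −1.15 for Il17b.

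Il17f, a product of Th17 cells, behaved unlike them: all 33 of its reads were in SENS 6 (1803 CPM). Pooled over SENS its level of 419.7 CPM was 7.14-fold the limit that 0 reads in NEO allow (58.8 CPM), but it rests on 1 library. Il17c had 2 reads, in SENS 5.

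Of the IL-6 and IL-12 families, Il23a, a subunit of interleukin-23, had 13 reads in NEO and 24 in SENS over 6 libraries, and Il11 had 11 and 11.3. Il27 had 1 read in NEO 1 and 1 in NEO 5 (97.7 and 145 CPM) and was at 0 elsewhere, and Il6 had 1 read, in NEO 3. With such counts the 0 in the other group is within what counting error allows. Il11 and Il27 each overlap a neighbouring gene in the annotation, Tmem190 and Apobr.

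Il5, which sustains eosinophils and signals through the common beta chain, was at 89.8, 290 and 1679 CPM in NEO 2, 5 and 6 and at 75.0 CPM in SENS 3. NEO 6 alone held 13 of its 17 reads. The log2 fold change of −3.19 (SE 2.41) became −1.90 without that library.

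The ligands of the common gamma chain drive lymphocyte growth. Il2, the T cell growth factor, was the one ligand above 0 in all 12 libraries, always at 1 to 5.5 reads. It was at 293, 269, 699, 571, 145 and 258 CPM in NEO and 348, 128, 412, 279, 249 and 137 CPM in SENS, an even low level in both groups (373 ± 213 and 259 ± 113 CPM; log2 fold change −0.46, SE 1.19). In 3 of the libraries its reads were fractions. Il21, from helper T cells, was at 684 and 725 CPM in NEO 1 and 5 and at 675, 1583 and 997 CPM in SENS 3, 4 and 5, and Il4 had 1 read in each group. In the IL-10 family, Il19 had 1 read in NEO 6 and 7 in SENS 2, and Il22 had 1.5 reads in SENS 5.

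**Figure D4:**
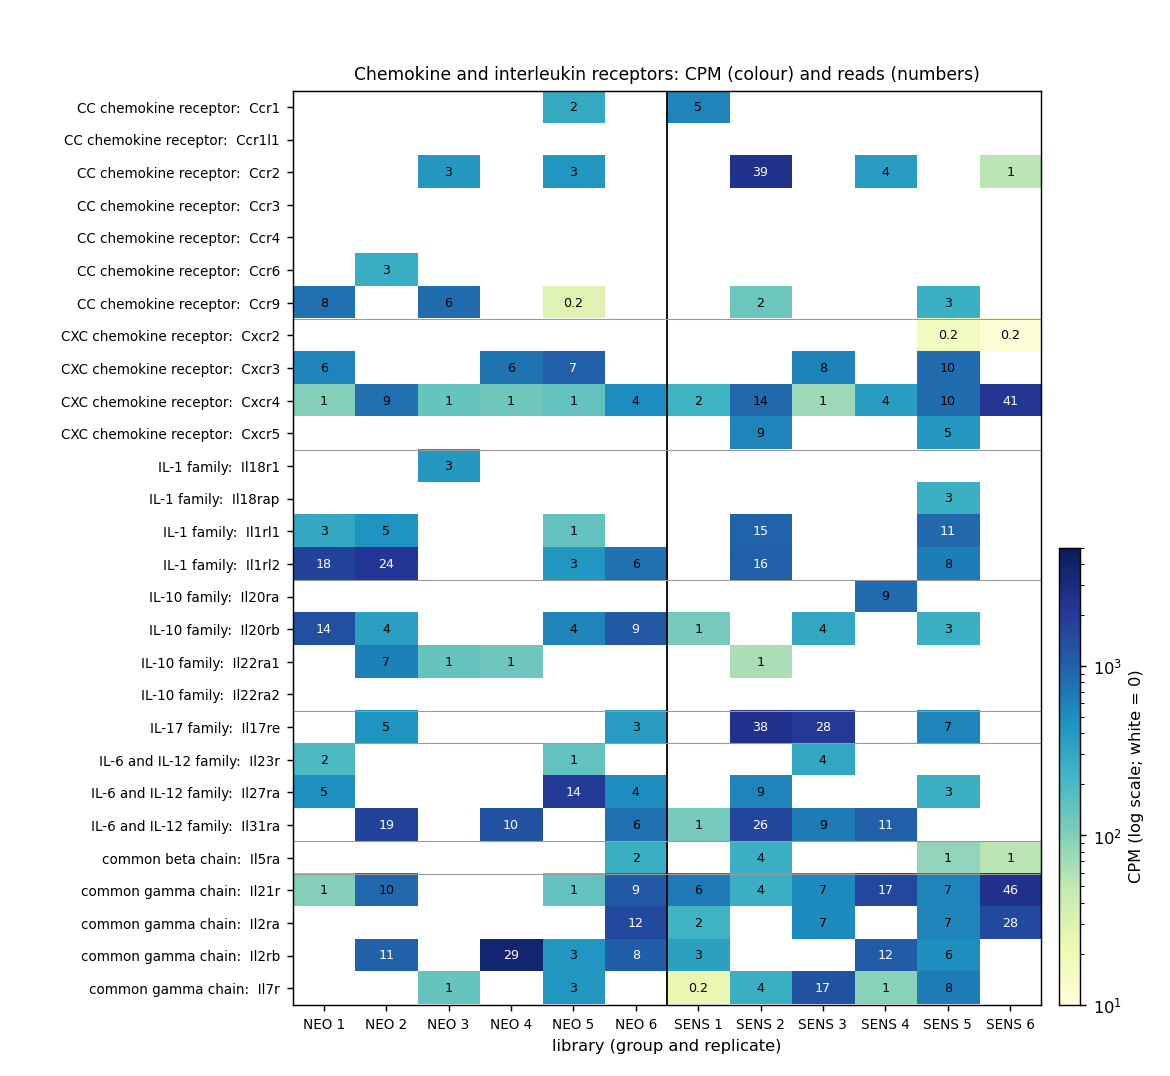
Level of each of the 28 receptor genes in the 12 libraries, drawn as for the ligands: colour is CPM on a log scale, white is 0, and numbers are reads. Cxcr4 is the single receptor above 0 in all 12 libraries, and single dark cells such as Il2rb in NEO 4 (29 reads) and Ccr2 in SENS 2 (39 reads) stand beside empty ones.

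Receptors that share the common gamma chain had the most reads among the receptor families, 88 in NEO and 182.2 in SENS over 4 genes. Il21r, the interleukin-21 receptor of lymphocytes (chromosome 7, 125603252 to 125634397), was at 97.7, 898, 145 and 1162 CPM in NEO 1, 2, 5 and 6 and at 0 in NEO 3 and 4. It was above 0 in every SENS library, at 696, 257, 525, 1583, 581 and 2514 CPM. The NEO range reached above 4 of the 6 SENS values, so the groups overlapped, while the mean was 384 ± 511 CPM in NEO and 1026 ± 857 CPM in SENS. The log2 fold change was 3.97 (SE 1.53, unadjusted p = 0.011, adjusted p = 0.745, limma), the smallest p of any member in that fit, and 3.63 without SENS 6, which held 46 of its 108 reads. In the exact permutation test of the difference of mean CPM, the unadjusted two-sided p was 0.147 for Il21r and 0.043 for Il1a (adjusted p = 1).

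Il2ra, the alpha chain that gives the interleukin-2 receptor its high affinity, was at 0 in 5 NEO libraries and at 1549 CPM in NEO 6. In SENS it was at 232, 525, 581 and 1530 CPM in replicates 1, 3, 5 and 6. More SENS libraries were above 0, and the highest value was a NEO one (258 ± 633 and 478 ± 572 CPM; log2 fold change 4.35, SE 2.79). Il2rb, the signalling beta chain, was at 987, 3678, 435 and 1033 CPM in NEO 2, 4, 5 and 6 and at 348, 1117 and 498 CPM in SENS 1, 4 and 5. NEO 4 held 29 of its 72 reads, and the log2 fold change was −2.17 (SE 2.50), or 0.12 without both SENS 2 and SENS 6. Il7r, which keeps naive T cells alive, was at 140 and 435 CPM in NEO 3 and 5 and at 23.2 (a fraction of 0.2 reads), 257, 1274, 93.1 and 664 CPM in SENS 1 to 5 (log2 fold change 3.83, SE 2.73). Neither chain of the interleukin-2 receptor nor Il7r passed the test.

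Of the chemokine receptors, Cxcr4, which senses Cxcl12 and is made by leukocytes and neurons, was above 0 in all 12 libraries. It was at 97.7, 808, 140, 127, 145 and 516 CPM in NEO and 232, 898, 75.0, 372, 831 and 2241 CPM in SENS. The lowest value of all and the highest were both in SENS, and SENS 6 held 41 of its 89 reads. The means were 306 ± 292 and 775 ± 789 CPM, with a log2 fold change of 1.11 (SE 1.13), or 0.32 without both SENS 2 and SENS 6. Cxcr5, which brings B cells into follicles, was at 0 in NEO and at 577 CPM in SENS 2 and 415 CPM in SENS 5. Pooled over SENS this is 178 CPM, 3.03-fold the NEO limit. Cxcr3, the receptor of Cxcl10, had 19 reads in NEO and 18 in SENS, and the neutrophil receptor Cxcr2 had fractions of 0.2 reads in SENS 5 and SENS 6.

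CC chemokine receptors were mostly at or near 0. Ccr2, the monocyte receptor, had 50 reads, of which 39 (78.0%) were in SENS 2, the library that also held most Ccl2 reads. Ccr9, of gut-homing T cells, had 14.2 reads in NEO and 5 in SENS, Ccr1 had 2 and 5, and Ccr6 had 3 reads, all in NEO 2.

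In the IL-1 receptor family, Il1rl2, the receptor of interleukin-36, was at 1759, 2154, 435 and 775 CPM in NEO 1, 2, 5 and 6 and at 1026 and 664 CPM in SENS 2 and 5. It was at 0 in 2 NEO and 4 SENS libraries, the means were 854 ± 911 and 282 ± 451 CPM, and the log2 fold change was −3.47 (SE 2.72, adjusted p = 0.745, limma). Il1rl1, the interleukin-33 receptor, which lies next to it on chromosome 1, had 9 reads in NEO and 26 in SENS. Every library with Il1rl1 reads also had Il1rl2 reads. The chains of the interleukin-18 receptor were almost absent from the counts: Il18r1 had 3 reads in NEO 3 (419.5 CPM) and Il18rap 3 reads in SENS 5.

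Il17re, the receptor of interleukin-17C, was at 449 and 387 CPM in NEO 2 and 6 and at 2438, 2099 and 581 CPM in SENS 2, 3 and 5. These 3 SENS values lay above all NEO libraries, the remaining 3 SENS libraries were at 0, and the log2 fold change was 2.34 (SE 2.83; 139 ± 217 and 853 ± 1124 CPM). Il31ra, an itch cytokine receptor, was at 1706, 1268 and 775 CPM in NEO 2, 4 and 6 and at 116, 1668, 675 and 1024 CPM in SENS 1 to 4. Its values spanned the same range in both groups (625 ± 745 and 580 ± 675 CPM; log2 fold change 1.06, SE 2.52). Of the other receptors in this family, Il27ra had 23 reads in NEO and 12 in SENS, and Il23r 3 and 4.

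Among receptors of the IL-10 family, Il22ra1, the signalling chain for interleukin-22 on epithelia, was at 628, 140 and 127 CPM in NEO 2, 3 and 4 and at 64.1 CPM in SENS 2. These are 9 reads and 1 read (log2 fold change −2.90, SE 2.31). Il20ra had 9 reads, all in SENS 4 (838 CPM), which pooled over SENS is 114 CPM, 1.95-fold the NEO limit, and it rests on 1 library. Its partner Il20rb had 31 reads in NEO and 8 in SENS, and Il5ra, the interleukin-5 receptor of eosinophils, had 2 and 6. Il4i1 and Il4i1b, which overlap each other in the annotation, had 1 and 2 reads in NEO and 1 and 2 in SENS.

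The listing of ligands and their receptors in the same library was counted as a description, since it follows from how many libraries list each gene. Of 30 textbook pairs, chosen after the values were seen, 11 were never both above 0 in a library, and in 5 of the 30 the receptor was at 0 throughout. Il2 with Il2rb was the only pair present in 6 or more libraries (7, of which 4 NEO and 3 SENS, the number of libraries with Il2rb, since Il2 was above 0 in all 12). Il2 with Il2ra and Il21 with Il21r were each together in 5 libraries, and Ccl12 with Ccr2 and Cxcl10 with Cxcr3 in 4. A value of 0 in a library allows up to 3 reads, so these counts describe what these libraries list and not which cells make either gene.

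**Figure D5:**
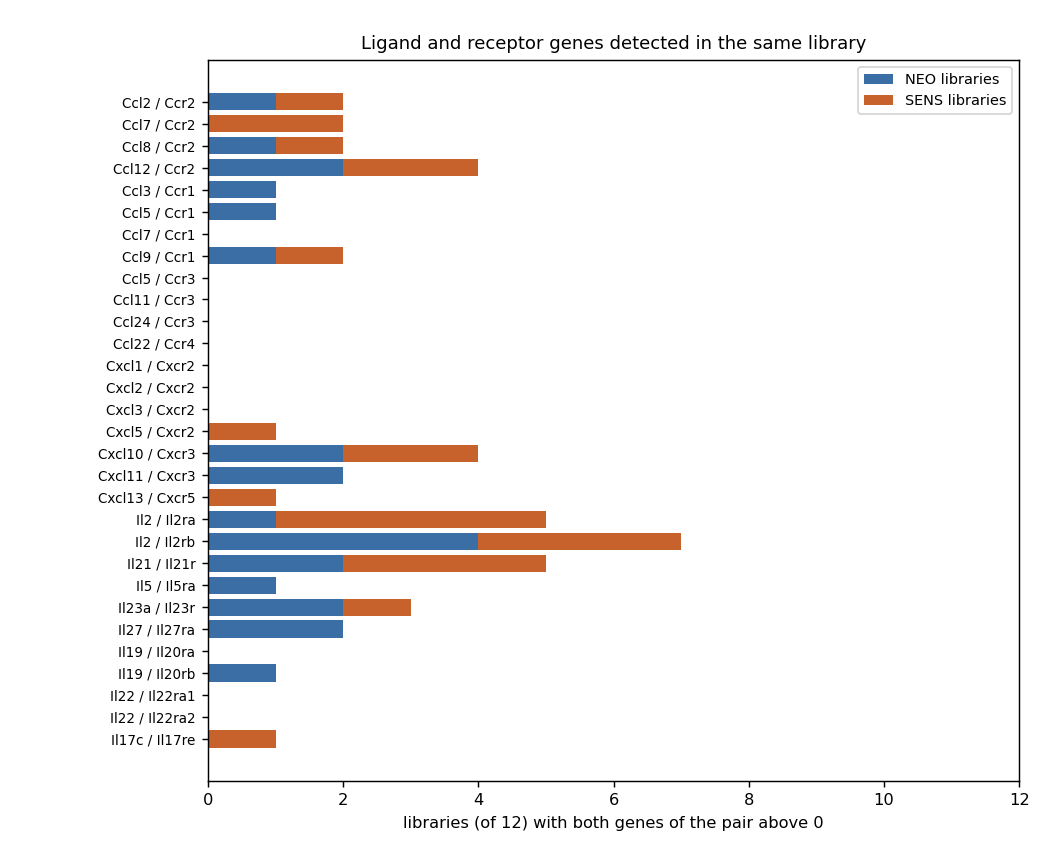
Number of libraries (of 12) in which both genes of a ligand and receptor pair were above 0, for 30 pairs; blue is NEO and orange is SENS. Only Il2 with Il2rb reaches more than 5 libraries (7), and 11 pairs have no bar.

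Members listed in 1 group only were found on both sides. In NEO only there were 7 (Ccl4, Ccl22, Cxcl15, Il27, Il6, Ccr6 and Il18r1) and in SENS only 7 (Il17f, Il17c, Il22, Cxcr5, Il20ra, Il18rap and Cxcr2). Of all 5764 genes, 528 were in NEO only and 1168 in SENS only, beside 1.54-fold more reads in SENS.

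Related signalling genes under other names gave the same picture of no calls in either direction. Of the 6 chemokine system genes in the table, 4 had a fold change above 0 and 2 below. The highest mean CPM among them was that of the scavenging receptor Ackr4 (log2 fold change −0.00), platelet factor Pf4 (2.83) and the chemerin receptor Cmklr1 (0.19). Pf4 was at 247 ± 316 CPM in NEO and 560 ± 695 CPM in SENS. Of 11 tested cytokine and cytokine receptor genes, 8 were above 0 and 3 below, and among the more abundant were Thpo, a growth factor of platelet precursors, and Csf2rb, the common beta chain that Il5 signals through (671 ± 989 and 583 ± 617 CPM). Of 4 genes of interferons and their receptors, 3 had a fold change above 0 and 1 below. By mean CPM 2 of them were higher and 2 lower in SENS. Ifng was at 284 ± 696 CPM in NEO, with all 19 reads in NEO 2, and at 254 ± 281 CPM in SENS. Of 16 tested members of the tumour necrosis factor superfamily 9 had a fold change above 0 and 7 below, while by mean CPM 7 were higher and 9 lower in SENS. Of 28 JAK, STAT, SOCS and related genes only Stat4 is in the table, at 220 ± 337 and 699.5 ± 814 CPM, and the others are not analysed here.

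Markers of immune cells had low counts, like the table throughout, some with higher values in SENS and others in NEO. The pan-leukocyte genes Ptprc and Cd52 summed to between 391 and 2066 CPM in NEO and between 834 and 4236 CPM in SENS. The log2 fold change was 2.70 for Ptprc and −1.20 for Cd52. By mean CPM both were higher in SENS: Ptprc was at 469 ± 564 CPM in NEO and 1498 ± 1358 CPM in SENS. Cd52 was at 791 ± 464 and 920 ± 770 CPM, with SENS 1 at 0. The 5 of 13 microglia and macrophage markers in the table (Cd163, Siglec1, Ms4a4a, Ms4a7 and Clec10a) summed to between 293 and 1449 CPM in NEO and between 498 and 3716 CPM in SENS, with 39 and 199.5 reads and 5 of 5 fold changes above 0. The 11 of 13 T cell markers summed to between 494 and 2029 CPM in NEO and between 72.7 and 2607 CPM in SENS, 5 with fold changes above 0 and 6 below. By mean CPM 6 were higher and 5 lower in SENS. Of the 11 T cell markers, Cd2 was at 891 ± 607 CPM in NEO and 359 ± 348 CPM in SENS (log2 fold change −3.53). Cd6 was at 0 in all NEO libraries, and its 34 SENS reads were 16 in SENS 3, 17 in SENS 4 and 1 in SENS 5. The 6 of 8 B cell markers, with 4 fold changes above 0 and 1 below, ran from 0 to 3298 CPM in NEO and from 0 to 2907 CPM in SENS. By mean CPM 3 were higher and 2 lower in SENS. The B cell marker Ms4a1, which defines mature B cells, was at 0 throughout. The 6 of 9 neutrophil markers, with 2 fold changes above 0 and 4 below, ran from 129 to 1885 CPM in NEO and from 166 to 2630 CPM in SENS. By mean CPM 1 was higher and 5 were lower in SENS. The 3 of 7 NK cell markers, with 0 of 3 fold changes above 0, ran from 0 to 580 CPM and from 0 to 54.6 CPM. The 3 of 6 mast cell markers, with 1 fold change above 0 and 1 below, ran from 0 to 387 CPM and from 0 to 326 CPM, with Tpsb2 at 0 throughout. None of these markers passed the test, their part in the chemokine and interleukin values was not tested, and markers of endothelial cells, astrocytes and fibroblasts are not analysed here.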

How the data were processed

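The authors deposited 1 table of CPM values for 5764 genes in 6 NEO and 6 SENS libraries, and each CPM column summed to between 999936 and 1000000. Per the submitters' processing notes, FastQC, HISAT2, featureCounts and edgeR were used with builds GRCm38 and mm10; versions, roles, settings, gene filter and use of strand: not given in the sources used here. Library depth outside these genes is unknown. The most frequent value above 0 in a column was taken as 1 read, and on that scale 81.2% of values above 0 were whole reads (tolerance 0.005 reads; 94.8% for the members), so no count model was fitted.

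SENS was compared with NEO by limma 3.58.1 in R 4.3.3 on log2(CPM + 1), a scale on which a change from 0 to 1 read is large, with a variance trend and no covariate, in genes averaging 1 CPM or more. The test was two-sided, and a gene was called at a Benjamini-Hochberg adjusted p under 0.05 over all genes. On simulated data with 200 genes changed, all drawn from the genes with the most reads, the fit called 0% of 8-fold changes (4738 genes) and 64% of 64-fold changes (4722 genes). These shares need not hold for genes with fewer reads, as some members have. Thinning drew 6000 reads per library, 20 times. Limits from a count of 0 use 3 reads, per library or over a group as stated. They cover counting error only, since reads carried no molecular identifiers, and leave out the counting error of the group set against them.

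Described with full values were, separately for ligands and receptors, the 8 members with the smallest unadjusted p and the 6 with the highest mean CPM (10 ligands and 12 receptors). Members and lists were chosen with earlier results of these data known. Il4i1b was put with Il4i1 by its symbol, and no score or sum over the members was tested. The 68 members were found in RefSeq by symbol. Alternatives changed the pseudocount, filter, variance trend, scaling, block and test (exact permutation over 924 regroupings), and left out each library, or SENS 2 and SENS 6 together, the last chosen after seeing the data. A gene that the naming rule took from another list is not reported here.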

Additional observations from a re-analysis of the deposited data

Results flagged for a closer look

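Of 54 sets of 6 values (the named members and summary measures, in each group), 14 had a highest library standing apart from the other 5 by more than Dixon's 95% limit for the gap over the range. Chance alone marks about 1 in 20 such sets, and values at 0 to a few reads are not smooth, so the number is given as a count only. The 54 include sets with every value at 0, which could not be marked: Ccl4, Il27 and Il18r1 in SENS, and Cxcr5 and Il20ra in NEO.

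Among ligands in NEO, Ccl4 stood apart in NEO 4 at 1141 CPM (next 290 CPM), Il17b in NEO 4 at 1522 CPM (next 699 CPM), Cxcl10 in NEO 5 at 2318 CPM (next 684 CPM), Ccl11 in NEO 6 at 904 CPM (next 290 CPM) and Il5 in NEO 6 at 1679 CPM (next 290 CPM). In SENS, Ccl9 stood apart in SENS 4 at 2887 CPM (next 515 CPM) and Il5 in SENS 3 at 75.0 CPM.

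Among receptors in NEO, Il2rb stood apart in NEO 4 at 3678 CPM (next 1033 CPM), Il22ra1 in NEO 2 at 628 CPM (next 140 CPM), Il7r in NEO 5 at 435 CPM (next 140 CPM), Il2ra in NEO 6 at 1549 CPM and Il18r1 in NEO 3 at 419.5 CPM. In SENS, Il20ra stood apart in SENS 4 at 838 CPM and Il22ra1 in SENS 2 at 64.1 CPM. In 5 of the 14 sets all other libraries were at 0. No set was marked for a highest value in NEO 1, SENS 1, SENS 5 or SENS 6.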

How the results depend on the processing

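As fitted and under 22 alternatives, no gene, and so no ligand and no receptor, passed an adjusted p of 0.05; genes at an unadjusted p under 0.05 numbered between 129 and 249, and the adjusted p of the named members ran from 0.682 to 1. Of 22 named members, 17 kept the sign of their fold change under each alternative that gave them a value. The filter at 100 CPM gave none for Cxcr5, Il18r1, Il20ra, Il22ra1 and Il27, nor did leaving out the only library with reads of Il18r1 or Il20ra. For Ccl4, Il27, Il18r1, Cxcr5 and Il20ra, at 0 throughout 1 group, the sign was all but fixed in advance. Changes of filter, variance trend and block leave a given fold change as it was, so the count of 17 is no measure of robustness. Ccl11 (−0.50) turned to 0.30 with a pseudocount of 50 CPM and to a difference of 313 CPM in the permutation test, and ran from −1.68 to 0.48 when single libraries were left out. Cxcl10 (1.11) turned to −169 CPM in the permutation test and −0.10 without both SENS 2 and SENS 6, and ran from −0.14 to 2.59. Ccl9 turned to 123 CPM and Il31ra to −44.3 CPM in the permutation test, and Il2rb to 0.12 without both SENS 2 and SENS 6. A filter at a mean of 100 CPM, which tests fewer genes, left 13 ligands and 7 receptors below 0 and 7 receptors above. Without single libraries the difference of ligand sums ran from −683 to 991 CPM, that of receptor sums from −502 to 1351 CPM, and that of members above 0 from −1.3 to 3.3. The median fold change of all genes moved from 0.39 to between 0.04 and 0.72. With the replicate number as a block, 0 genes passed and 176 had an unadjusted p under 0.05; samples with 1 number did not deviate together (correlations −0.03 to 0.08, 1 of 6 best with its own number). Counts of a few reads per gene limit all of this. On simulated data, 8-fold changes placed among the genes with the most reads were not called, and genes with fewer reads were not simulated as changed.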
